A study of Rattus norvegicus with 24 samples.

Results

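The genes followed here are those of prolactin (Prl), growth hormone (Gh1), the common alpha subunit of the glycoprotein hormones (Cga) and proopiomelanocortin (Pomc), with the receptor genes for prolactin (Prlr) and growth hormone (Ghr). All 6 were found by symbol among the 20318 features of a table of hippocampal expression in female rats. The members were chosen by symbol with earlier results of these data known, among the values used being the low normalised counts of Prl and the shared variation of Prlr with Ttr. Their levels are therefore given as a description, and no test of a member is used as support.

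Prolactin and growth hormone are made by lactotrophs and somatotrophs of the anterior pituitary and act through related single-pass receptors that carry the kinase JAK2 and activate STAT5. In rats, estradiol is a classic stimulus of pituitary prolactin synthesis. In the brain, the prolactin receptor is best known from the choroid plexus, where it takes part in moving circulating prolactin into the cerebrospinal fluid, and from the hypothalamus. Pomc, the precursor of ACTH, melanocortins and beta-endorphin, is made in the pituitary and by neurons of the arcuate nucleus, and Cga pairs with the beta subunits of thyrotropin, lutropin and follitropin.

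The 24 libraries came from the hippocampus of rats aged 6 months at surgery, without a stated strain. Treatment rats were ovariectomised and given vehicle for 3 weeks and then estradiol (E2) for 2 weeks (n = 5, numbered 1, 2, 5, 6 and 7). Prevention rats were ovariectomised and given estradiol for 5 weeks (n = 5). OVX rats were ovariectomised and given vehicle for 7 weeks (n = 7). SHAM rats, for which no ovary removal is named, had 7 weeks of vehicle (n = 7). The labels do not give the estradiol dose, the cycle stage of SHAM rats or the time between surgery and tissue collection, and the vehicle groups have a longer treatment than the estradiol groups. The values are normalised counts made by the authors, with totals of 35.4 to 38.8 M per library.

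Besides their treatment, libraries differed in the level of a feature used here to split them, in depth and in the content of choroid, thalamic and hypothalamic markers. In the Prevention libraries and in Treatment replicates 1 and 2, the feature LOC257642 lay above a log2 level of 16 (7 libraries, called the high set), and in the other 17 it lay below (the low set). Depth, as reads estimated from the value of 1 read, ran from 39.6 to 53.3 M across the 7 and from 26.7 to 40.1 M across the 17 libraries. The Prevention group lay wholly in the high set and both vehicle groups wholly in the low set. Markers of hippocampal neurons summed to between 151900 and 237200 normalised counts in every library. Thalamic markers summed to 3686 to 19220 and hypothalamic markers to 816.7 to 16780 over all libraries. Markers of choroid plexus epithelium, the tissue beside the hippocampus that makes cerebrospinal fluid, summed to 605.6 to 85920 in Treatment, 1383 to 85030 in Prevention, 1014 to 87930 in OVX and 778.8 to 167500 in SHAM libraries.

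Promoters of the prolactin ligand and receptor genes are shown because the ligand was listed mostly in estradiol libraries and the receptor gene has more than 1 annotated start. They are windows of 300 bases around a start in RefSeq (GRCr8), 5′ to 3′, and are Prl at chr17:38298168-38298467 on the minus strand, the first Prlr start at chr2:60861515-60861814 and the second Prlr start at chr2:60909409-60909708, both on the plus strand. Capitals mark matches to ATGNATA, the core of sites for the pituitary factor Pit-1, and to TTCNNNGAA, the spacing of STAT5 sites, searched on both strands.
Prl: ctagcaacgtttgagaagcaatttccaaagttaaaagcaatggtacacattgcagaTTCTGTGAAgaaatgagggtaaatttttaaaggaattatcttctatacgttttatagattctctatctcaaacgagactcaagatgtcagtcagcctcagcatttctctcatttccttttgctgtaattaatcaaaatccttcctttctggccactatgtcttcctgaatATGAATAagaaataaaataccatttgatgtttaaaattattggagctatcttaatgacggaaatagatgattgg
Prlr start 1: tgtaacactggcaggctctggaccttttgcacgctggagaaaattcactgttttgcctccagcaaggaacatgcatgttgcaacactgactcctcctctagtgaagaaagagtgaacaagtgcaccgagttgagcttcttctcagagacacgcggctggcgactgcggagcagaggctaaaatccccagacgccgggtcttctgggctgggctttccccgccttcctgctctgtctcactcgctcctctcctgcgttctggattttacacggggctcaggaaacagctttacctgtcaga
Prlr start 2: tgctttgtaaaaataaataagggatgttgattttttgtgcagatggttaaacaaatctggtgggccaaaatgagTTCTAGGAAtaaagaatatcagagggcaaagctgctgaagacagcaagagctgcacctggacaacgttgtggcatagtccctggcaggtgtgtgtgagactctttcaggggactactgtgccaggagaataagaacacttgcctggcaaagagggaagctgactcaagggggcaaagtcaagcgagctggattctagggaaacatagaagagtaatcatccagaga
The Prl window held 1 match to ATGNATA, beginning at position -24 from the start, and 1 to TTCNNNGAA, beginning at -194. The first Prlr window held neither and the second held 1 match to TTCNNNGAA, beginning at -176. Of 33469 promoters of this length, 9.88% held ATGNATA and 8.87% held TTCNNNGAA. The full palindromic estrogen response element was in 0.0269% of promoters and in none of these windows, and its half-site GGTCA, found in 40.5%, was also in none of them. These are matches of letters only. Imperfect elements and sequence outside the 300 bases were not searched, so the absence of a match does not show that a gene lacks such an element.

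Of the hormone ligands, prolactin was listed in nearly every estradiol library and in few vehicle libraries. Prl measured 0, 13.4, 11.6, 5.59 and 1.03 normalised counts in Treatment libraries and 6.99, 4.07, 3.92, 2.77 and 37.2 in Prevention libraries. It was listed at 0 in 5 of 7 OVX libraries, with a highest value of 1.05, and at 0 in 5 of 7 SHAM libraries, with a highest value of 6.48. The smallest common step of a column, the value of 1 read, lay between 0.69 and 1.37 normalised counts, and Prl came within 0.1 read of a whole number in every library.

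In those units Prl had 0, 17, 11, 5 and 1 estimated reads in Treatment replicates 1, 2, 5, 6 and 7, and 9, 5, 4, 4 and 53 in Prevention replicates 1 to 5. OVX replicates 1 and 7 had 1 read each and the other OVX libraries 0. SHAM replicate 3 had 5 reads, SHAM replicate 7 had 1 and the other SHAM libraries 0. Prl was thus above 0 in 9 of 10 estradiol libraries and in 4 of 14 vehicle libraries. At 3 or more reads the counts were 8 of 10 and 1 of 14. A count of 0 allows up to 3 reads, here 2.07 to 4.11 normalised counts, so the OVX libraries lie at or below the level at which Prl could be told from 0.

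Summed over libraries, Prl had 34 reads in Treatment (1.79 per 10 M estimated reads), 75 in Prevention (3.13), 2 in OVX (0.0860) and 6 in SHAM (0.256). Single libraries carried much of this. Without Treatment replicate 2 the Treatment rate was 1.19, without Prevention replicate 5 the Prevention rate was 1.18, without OVX replicate 1 the OVX rate was 0.0509 and without SHAM replicate 3 the SHAM rate was 0.0485. Every Prevention library had a Prl value above that of every OVX library, while Treatment overlapped OVX through replicates 1 and 7. Prevention replicate 4, at 2.77 normalised counts, lay below the 3.06 to 3.63 that a count of 0 allows in OVX libraries, so complete separation was not resolved at this depth. Of 4199 features with a mean under 10, the Prevention libraries lay above all OVX libraries in 8 (0.191%), Prl among them. The same held of Treatment over OVX libraries in 1 such feature (0.0238%) and of Treatment over Prevention libraries in 7 (0.167%), in neither case Prl. Within the low set, Prl was above 0 in 3 of 3 Treatment libraries and in 4 of 14 vehicle libraries. Treatment replicate 7 had 1 read there, and at 3 or more reads only Treatment replicates 5 and 6 and SHAM replicate 3 remained. The share of other low features with this pattern was not counted. In the high set Prl was above 0 in 6 of 7 libraries, all of them from estradiol groups, so set and treatment cannot be told apart there.

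**Figure D1:**
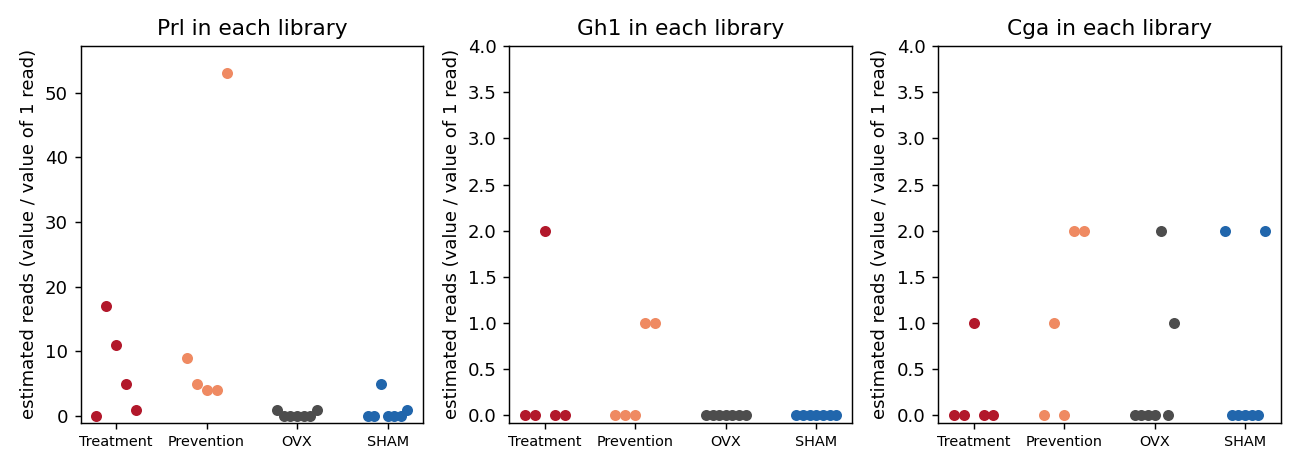
Estimated reads of Prl, Gh1 and Cga in each library (1 point per library), which are normalised counts divided by the value of 1 read, in Treatment, Prevention, OVX and SHAM. Prl reaches 53 reads in a Prevention library and at most 1 in OVX, whereas Gh1 and Cga never exceed 2 reads in any group.

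The other pituitary ligands were too low to be followed. Gh1 had 2 reads in Treatment replicate 5, 1 read each in Prevention replicates 4 and 5, and 0 in all OVX and SHAM libraries, a total of 4 reads in the series. All 3 libraries with Gh1 reads also had Prl reads (11, 4 and 53). Cga had 1 read in 1 Treatment library, 1 or 2 reads in 3 Prevention libraries, 1 or 2 reads in 2 OVX libraries and 2 reads in 2 SHAM libraries. In the library with the most Prl, Prevention replicate 5, 53 reads of Prl stood beside 1 of Gh1 and 2 of Cga, and in Treatment replicate 2, 17 reads of Prl stood beside 0 of both. Both Gh1 and Cga stayed within the 3 reads that a count of 0 allows, so neither their presence nor their absence beside Prl can be read at this depth.

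Markers of pituitary cells were set beside Prl. Of 15 listed, 14 were in the table, and the 11 that are not followed here summed to 273.3 to 316.9 normalised counts in Treatment, 238.4 to 280.7 in Prevention, 201.3 to 338.4 in OVX and 206.1 to 321.3 in SHAM libraries. Most of this sum came from Lhb, the lutropin beta subunit gene (59.6 to 165 over all libraries), Tbx19, a factor of corticotrophs (49.7 to 93.5), and Gnrhr, the gonadotropin-releasing hormone receptor gene (29.6 to 69.5). Lhb overlaps Saxo3 in GRCr8, so its reads may not all be its own. Pou1f1, which encodes Pit-1, the factor that drives Prl and Gh1 in the pituitary, had a median of 2.49 and a highest value of 6.10 normalised counts and was at 0 in 3 libraries. In the libraries with the most Prl reads, Ttr, the thyroxine carrier of choroid plexus, measured 798 in Prevention replicate 5 and 281 in Treatment replicate 2. It measured 12498 in Treatment replicate 5 and 68774 in Prevention replicate 1, which came next with 11 and 9 reads of Prl. SHAM replicate 3, with 5 reads, had Ttr at 23186. OVX replicate 2, with the largest sum of hypothalamic markers (16780), had Prl at 0. The next largest sums, 10490 in Prevention replicate 4 and 5314 in Treatment replicate 6, stood beside 4 and 5 reads of Prl. Where the Prl reads came from was not tested. Among the placental relatives of prolactin, 1 of 22 was in the table, Prl5a2, with at most 3.37 normalised counts.

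The prolactin receptor gene was expressed in every library and varied more within each group than between groups. Prlr measured 21.6, 14.2, 67.6, 405 and 27.1 normalised counts in Treatment libraries and 467, 87.8, 73.2, 415 and 27.4 in Prevention libraries. It ran from 16.8 through a median of 43.6 to 219 in OVX libraries and from 8.86 through 26.7 to 484 in SHAM libraries. By median the order was Prevention (87.8), OVX (43.6), Treatment (27.1) and SHAM (26.7), and the ranges of all 4 groups overlapped.

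Prlr followed Ttr from library to library. In the 8 libraries with the lowest Ttr (281 to 1019), Prlr lay between 8.86 and 27.4, in the middle 8 (Ttr 1028 to 16600) between 26.5 and 87.8, and in the 8 with the highest Ttr (23190 to 136700) between 110 and 484. Each of these sets of 8 held all 4 groups. Spearman's correlation over the 24 libraries was 0.960 and Pearson's r of the log2 values 0.956, given without a test because the pair was chosen with these values known. Without the 2 libraries farthest from the median of Ttr, Spearman's correlation was 0.950 and r 0.947. Spearman's correlation was 0.973 within the low set (n = 17) and 1.00 within the high set (n = 7), so the relation held inside both sets. Of all 16118 other tested genes, those most like Prlr were Clic6, a chloride channel protein (Spearman's correlation 0.973), Kl, klotho (0.970), Sostdc1, a secreted signalling antagonist (0.965), Ttr (0.960) and Cldn2, a tight junction protein (0.959), all known from choroid plexus epithelium. Over all of these genes the 99th percentile of Spearman's correlation was 0.749. In such bulk tissue, more choroid cells and more Prlr RNA per cell cannot be told apart.

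**Figure D2:**
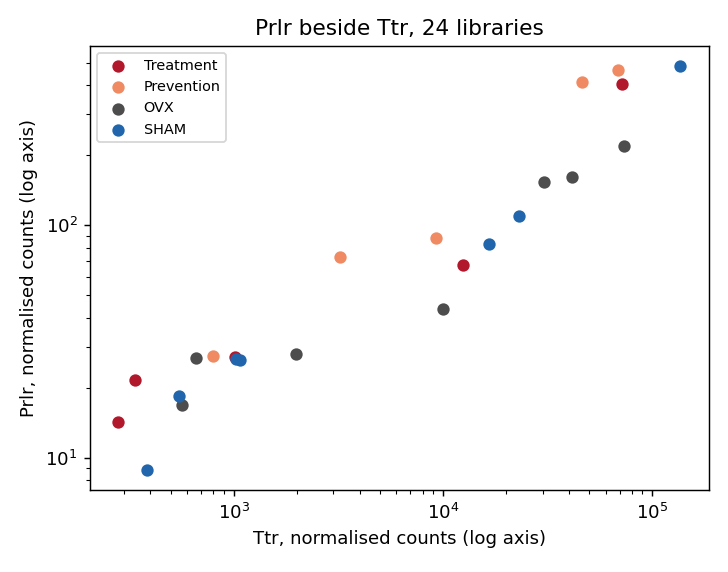
Prlr against Ttr, both in normalised counts on log axes, with 1 point per library coloured by group. The points lie along 1 rising band from Treatment and SHAM libraries at the low end (Ttr 281 in a Treatment library) to a SHAM library at 136700, and each group spreads along its length.

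Prlr was also set at the same choroid content. The choroid score of a library is the mean log2 level of 11 of 12 listed choroid markers that were in the table, Prlr not among them, and Prlr was higher by 0.707 log2 units per unit of score within groups. At the mean score, Prlr lay between 5.63 and 6.58 on the log2 scale in Treatment, 6.11 and 6.84 in Prevention, 5.27 and 6.49 in OVX and 5.02 and 6.26 in SHAM libraries. The SD within a group was 0.377, 0.323, 0.374 and 0.437 after this step in Treatment, Prevention, OVX and SHAM, and 1.89, 1.73, 1.47 and 1.89 before it. After the step most OVX and SHAM libraries lay below the lowest Prevention library, and the ranges still overlapped. Treatment replicates 2, 5 and 7 (5.873, 5.625 and 6.04) also lay below that library. The share of other genes with this pattern after the step was not counted. With the score in limma, Prlr ranked 793 of 16119 genes by p in Prevention against OVX, where 253 genes were called. No Prevention library shares its library set with an OVX or SHAM library.

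The change of Prlr in Prevention against OVX was 1.06 (SE 0.94) on the log2 scale as deposited and 0.71 (SE 0.22) with the choroid score as a covariate in limma. As deposited it was 0.597 without Prevention replicate 1 and 1.61 without Prevention replicate 5. It was 3.37 (SE 1.68) with the library set as a term and 0.68 (SE 0.44) with score and set together. In Treatment against OVX the change was -0.35 (SE 0.94) as deposited, with a range from -1.12 to 0.0641 without single libraries, and 0.30 (SE 0.22) with the score, and within the low set with the score it was 0.30 (SE 0.28). Treatment against Prevention gave -1.42 (SE 1.01) as deposited, -2.18 without Treatment replicate 6, and -0.40 (SE 0.24) with the score. OVX against SHAM gave 0.35 (SE 0.85) as deposited, with a range from -0.0386 to 0.898, and -0.00403 (SE 0.20) with the score. Prlr was not among the called genes in any comparison, in either fit. Prevention and Treatment are set against the same OVX libraries.

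**Figure D3:**
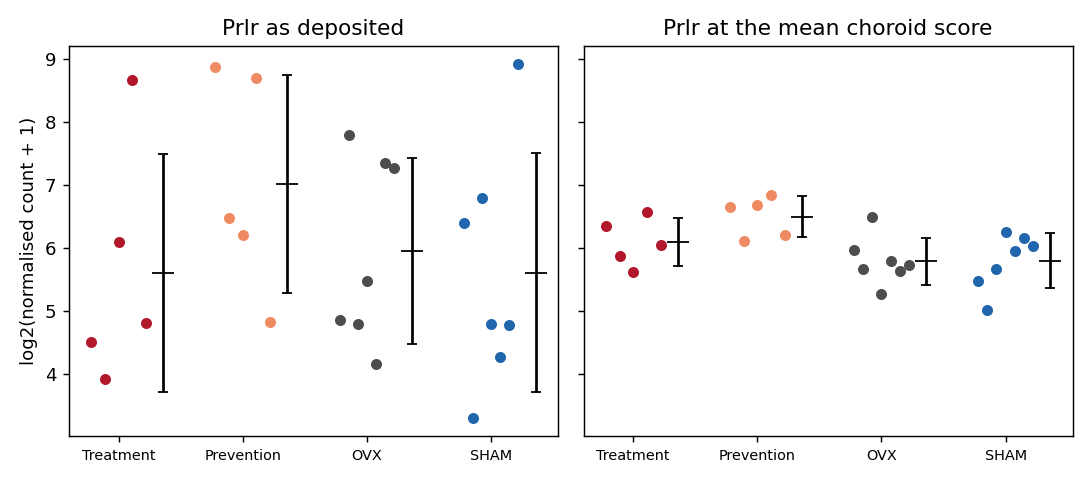
Prlr as log2(normalised count + 1) in each library (points) with the group mean and SD (black), as deposited on the left and set to the mean choroid score on the right. The spread within a group shrinks from an SD of 1.47 to 1.89 on the left to an SD of 0.323 to 0.437 on the right, where Prevention points lie between 6.11 and 6.84.

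The growth hormone receptor gene was the steadiest of the 6. Ghr measured 545, 581, 508, 546 and 456 normalised counts in Treatment libraries and 541, 497, 587, 448 and 533 in Prevention libraries. It ran from 359.9 through a median of 481 to 580.4 in OVX libraries and from 391 through 457 to 578 in SHAM libraries. Means were 527 ± 47.4 in Treatment, 521 ± 51.8 in Prevention, 476 ± 70.9 in OVX and 469.7 ± 65.4 in SHAM (SD, n = 5, 5, 7 and 7). The groups overlapped widely, and neighbours in this order differed by less than 1 SD. The change was 0.16 (SE 0.10) in Treatment against OVX, 0.14 (SE 0.10) in Prevention against OVX, 0.02 (SE 0.11) in Treatment against Prevention and 0.02 (SE 0.10) in OVX against SHAM. Without OVX replicate 6 the changes against OVX were 0.0911 in Treatment and 0.0732 in Prevention, and with the library set as a term that in Prevention was -0.0258.

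Genes most like Ghr over the 24 libraries were Ppp1r12a, a subunit of myosin phosphatase (Spearman's correlation 0.730), Apaf1, the apoptosome scaffold (0.723), Rbbp7, a histone-binding protein (0.718), Mid1, a ubiquitin ligase (0.710), and Jak2, the kinase that growth hormone and prolactin receptors carry (0.703). Over all genes the 99th percentile was 0.569. Jak2 averaged 1819 ± 108 normalised counts in Treatment, 1800.4 ± 76.6 in Prevention, 1717 ± 88.5 in OVX and 1673 ± 128 in SHAM libraries. Within the low set alone, Spearman's correlation between Ghr and Jak2 was 0.615. These likenesses share library depth and tissue content, and no test was made of them.

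Pomc was expressed at a low level in every library. Pomc measured 95.7, 73.3, 195, 60.1 and 96.1 normalised counts in Treatment libraries and 71.3, 78.0, 63.6, 89.1 and 57.3 in Prevention libraries. It ran from 57.6 through 85.2 to 124 in OVX libraries and from 46.3 through 66.1 to 113 in SHAM libraries. Treatment replicate 5 stood highest of all 24 libraries, and it was also the library with 2 reads of Gh1 and 11 of Prl. Otherwise the groups overlapped, in the order of medians Treatment (95.7), OVX (85.2), Prevention (71.3) and SHAM (66.1). The Pomc locus overlaps Efr3b in GRCr8, and strand use in the counting is not given in the sources used here, so reads of these genes may not be fully separated.

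The log2 change of Pomc was 0.18 (SE 0.24) in Treatment against OVX, -0.24 (SE 0.24) in Prevention against OVX, 0.42 (SE 0.26) in Treatment against Prevention and 0.29 (SE 0.22) in OVX against SHAM. Without Treatment replicate 5 the change in Treatment against OVX was -0.07 and that in Treatment against Prevention 0.165. Without OVX replicate 4 the change in Prevention against OVX was -0.145, and with the library set as a term it was 0.0723. Hypothalamic markers, 15 of 15 in the table, summed to 863.5 to 5314 in Treatment, 941.5 to 10490 in Prevention, 816.7 to 16780 in OVX and 877.8 to 1611 in SHAM libraries, and Agrp, the peptide of the neurons that neighbour Pomc cells, stayed between 7.85 and 24.3. Treatment replicate 5 had a sum of 863.5, at the low end. Spearman's correlation between Pomc and this sum was -0.363 over 24 libraries. The highest single values in the sum were those of Pmch (5944), Oxt (4955) and Avp (3926), so its upper end does not follow Agrp. Among the genes most like Pomc were Cntnap3b, a contactin-associated protein (Spearman's correlation 0.770), Kcnip3, a calcium-binding channel partner and repressor (0.740), Slc26a4, the anion exchanger pendrin (0.725), and Bend5 (0.719).

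**Figure D4:**
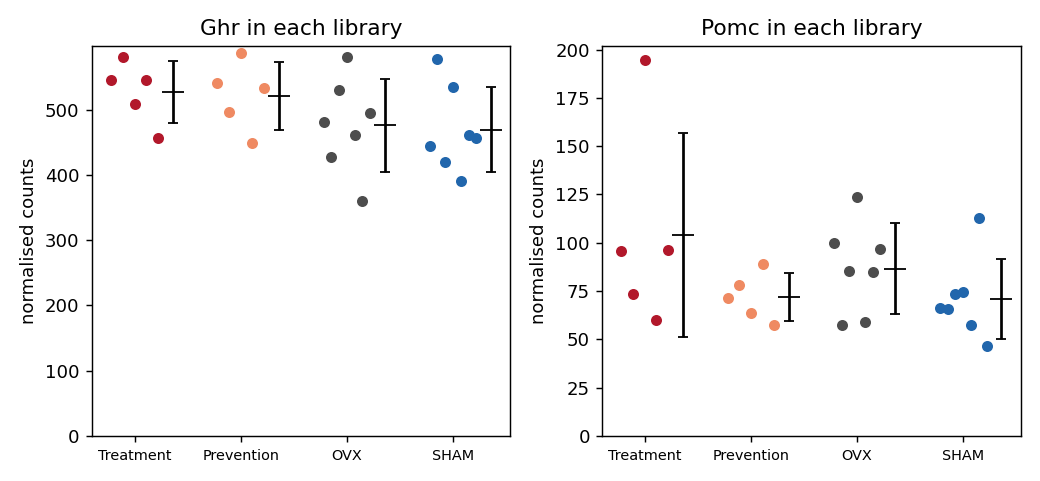
Ghr and Pomc in normalised counts in each library (points), with the group mean and SD in black, for Treatment, Prevention, OVX and SHAM. Ghr means lie between 469.7 and 527 with overlapping groups, and a single Treatment library reaches 195 for Pomc.

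Calls over all genes set these values in context. Of the 6 members, 3 (Prlr, Ghr and Pomc) had a mean of at least 10 and were tested, and 3 (Prl, Gh1 and Cga) were under this filter. In Prevention against OVX, limma called 49 of 16119 genes at an adjusted p under 0.05 (0.304%) and 0 of the 3 members. This count was 0 with the library set as a term and 1 to 481 when single libraries were left out, lowest without Prevention replicate 3 and highest without OVX replicate 7. In Treatment against OVX, Treatment against Prevention and OVX against SHAM it called 0 genes (0%), with 1159, 868 and 1007 genes at an unadjusted p under 0.05. Without the filter, when all 6 members were fitted, 38 of 20318 features were called in Prevention against OVX (0.187%), again with 0 members. Groups did not overlap for 1.86% of tested genes in Prevention against OVX, 0.298% in Treatment against OVX, 1.20% in Treatment against Prevention and 0.0248% in OVX against SHAM, and for 0 of the 3 tested members in all 4.

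Genes of the signalling chain behind both receptors were expressed. Of 28 listed, 26 were tested at a mean of at least 10 without covariates, and limma called 0 higher and 0 lower in each of the 4 comparisons. Their median log2 change was 0.05 in Treatment against OVX (16 of 26 above 0), 0.06 in Prevention against OVX (17 of 26), -0.04 in Treatment against Prevention (8 of 26) and -0.03 in OVX against SHAM (11 of 26). The median over all tested genes lay between -0.00235 and 0.00430. In Prevention against OVX, 6 of the 26 had an unadjusted p under 0.05, and over all tested genes 3006 of 16119 did.

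The listed genes nearest to the threshold were Socs7, a suppressor of cytokine signalling, and Igf1r, the receptor of the growth factor IGF-1 that growth hormone induces. Socs7 measured 1371 ± 206 normalised counts in Treatment, 1552 ± 116 in Prevention, 1211 ± 99.1 in OVX and 1274 ± 115 in SHAM libraries (SD, n = 5, 5, 7 and 7, as for the genes that follow). Its change was 0.36 (SE 0.08, limma adjusted p = 0.0534) in Prevention against OVX. Socs7 passed the threshold in this comparison with a mean of at least 100 (0.36, limma adjusted p = 0.0473), with the choroid score as a covariate (0.37, limma adjusted p = 0.0286) and without any 1 of Treatment replicates 1 and 6, OVX replicates 4, 5 and 7 and SHAM replicate 5 (limma adjusted p from 0.0267 to 0.0483). It did not pass with the library set as a term. Igf1r measured 865 ± 182 in Treatment, 968 ± 108 in Prevention, 732 ± 86.4 in OVX and 827 ± 86.3 in SHAM libraries, with a change of 0.40 (SE 0.11, limma adjusted p = 0.0675) in Prevention against OVX. Igf1r passed without Treatment replicate 1 (limma adjusted p = 0.0394) or OVX replicate 7 (0.0365), and Sos1, an exchange factor for Ras, without OVX replicate 4 (0.0482) or 7 (0.0349). In this comparison the groups lie in different library sets.

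The STAT5 genes and their targets are given for their role, chosen after their values were seen. Stat5a measured 193 ± 42.5 in Treatment, 165 ± 15.1 in Prevention, 179.6 ± 35.2 in OVX and 174 ± 25.1 in SHAM libraries. Stat5b measured 742 ± 104 in Treatment, 743 ± 103 in Prevention, 718 ± 127 in OVX and 709 ± 44.3 in SHAM libraries. Igf1, the growth hormone target, measured 133 ± 12.7 in Treatment, 152 ± 19.1 in Prevention, 144 ± 16.7 in OVX and 134 ± 22.8 in SHAM libraries. None of the 3 genes was called in any comparison, in any fit run.

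**Figure D5:**
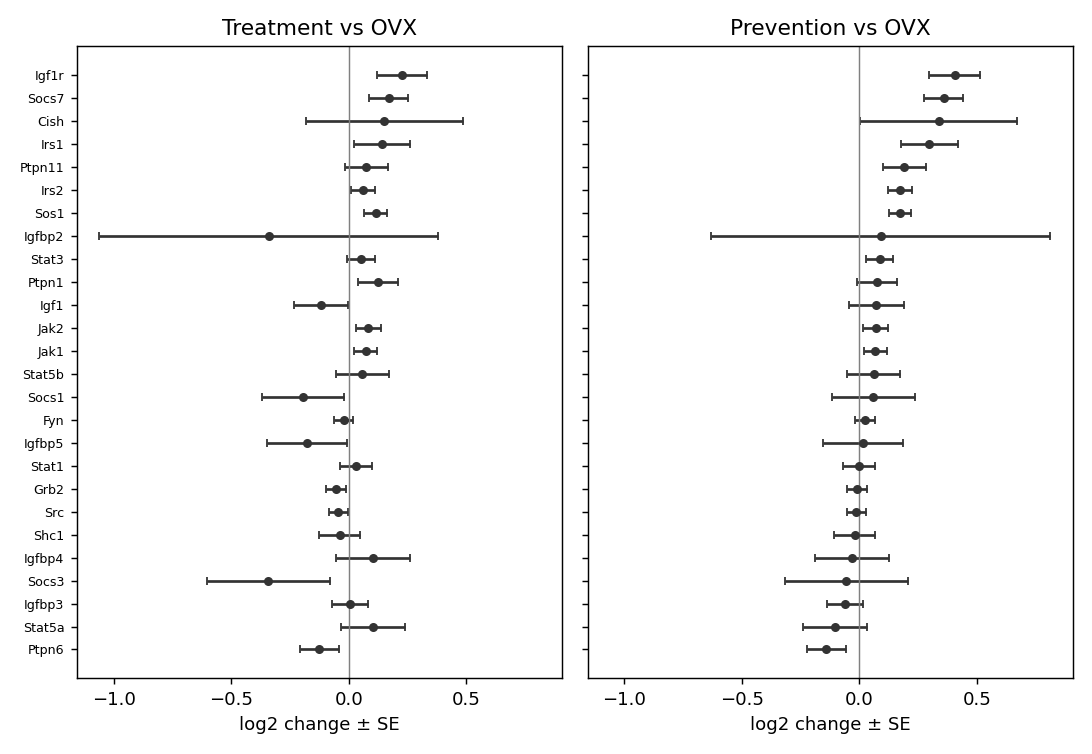
Log2 change with its SE (bars) of the 26 tested genes of prolactin and growth hormone signalling in Treatment against OVX on the left and Prevention against OVX on the right, in the order of the right panel. Igf1r (0.40) and Socs7 (0.36) stand highest on the right, and 0 of the 26 passed in either comparison in this fit of all libraries without covariates.

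Genes of the other lists of the pituitary axis were not called in any fit run. Among receptors for melanocortins, opioids and glycoprotein hormones, 10 of 12 were in the table and 4 were tested, with 0 called in each comparison. The delta opioid receptor gene Oprd1 measured 71.2 ± 25.1 in Treatment against 96.4 ± 17.4 in Prevention libraries (-0.50, SE 0.20, limma adjusted p = 0.802). Mrap2, an accessory protein of melanocortin receptors, measured 691 ± 71.9 in Prevention against 779.6 ± 82.4 in OVX libraries (-0.17, SE 0.08, limma adjusted p = 0.251). Of 18 hypothalamic regulators and their receptors 16 were tested and 0 were called. Sst, somatostatin, which holds back growth hormone release and is also made by hippocampal interneurons, measured 1737 ± 394 in Prevention against 2344 ± 349 in OVX libraries (-0.45, SE 0.14, limma adjusted p = 0.0894). Gnrhr measured 58.2 ± 7.84 in Treatment against 44.4 ± 10.6 in OVX libraries (0.41, SE 0.20, limma adjusted p = 0.690).

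Of 9 genes that cut and package prohormones such as Pomc, 8 were tested and 0 were called. Pam, which amidates peptides, measured 11702 ± 794 in Treatment against 10975 ± 430 in OVX libraries (0.09, SE 0.05, limma adjusted p = 0.700), and the granin Chgb 17026 ± 2489 in Prevention against 19251 ± 2655 in OVX libraries (-0.18, SE 0.09, limma adjusted p = 0.315). Of the beta subunits that pair with Cga, Tshb ran from 5.05 to 17.8 and Fshb from 1.00 to 11.5 normalised counts over all libraries, both below the filter by mean. Lhb was tested and measured 111 ± 13.2 in Treatment, 105 ± 8.87 in Prevention, 109.7 ± 42.8 in OVX and 93.2 ± 37.2 in SHAM libraries, with OVX and SHAM ranges that enclose those of the estradiol groups.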

How the data were processed

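RNA of frozen rat hippocampus was sequenced in 24 libraries, grouped by their titles. The submitters' processing notes name kallisto 0.43 and DESeq2, without its version. Normalised counts (a signal value per gene and library) were deposited by the authors; the sources used here do not give genome build, annotation or filters. Labels do not state that libraries came from separate animals, so p-values measure the spread between these samples; 0% of values were identical between libraries of a group.

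After a log2(value + 1) step, limma 3.58.1 (R 4.3.3) gave 1 fit of all 24 libraries, with group means, a mean-variance trend, the 16119 genes averaging 10 or more, and Benjamini-Hochberg adjustment at 0.05. The fit was tested on simulated data with known changes. The value of 1 read was taken as the commonest non-zero value under 3 in a column. Values at 2 reads were 1.99 to 2.01 times it, and 83.7% of low values came within 0.1 of a whole read, so a count test was not run. None of the 6914 most abundant genes was listed at 0. Figures used Python 3.11.15 and matplotlib 3.10.9.

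The members, marker lists, pathway lists and the library set were chosen with earlier results of these data known. Named genes were the members, Ttr, the 5 genes most like each tested member by Spearman's correlation, and the 2 members of each list with the smallest p; 1 of the genes most like Pomc is not reported here. Others are said to be chosen after their values were seen. Gene overlaps and promoters are from RefSeq GRCr8, which 77.2% of the symbols matched. Alternatives were other pseudocounts, filters and scalings, a replicate block, the library set, the choroid score, and leaving out each library. Fits with both set and score, the score within the low set, and the Prl thresholds were added after seeing the data.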

Additional observations from a re-analysis of the deposited data

Results flagged for a closer look

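Of 16 groups of member values examined as log2(value + 1), 1 held a library far from the others by Dixon's gap over range. The usual rate of about 1 in 20 by chance assumes normally spread values. It does not apply to this group, where most libraries lie at 0. The gaps were not examined on the normalised counts themselves. Prl measured 6.48 normalised counts (5 estimated reads) in SHAM replicate 3, against 1.01 in the next SHAM library and 0 in the other 5. This library had a Ttr level of 23190 and 28.4 M estimated reads.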

How the results depend on the processing

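No member was called in any comparison under any alternative run, and the smallest adjusted p among 419 alternative values of Prlr, Ghr and Pomc was 0.0856 (Prlr, Prevention against OVX, choroid score). Of these values 399 kept their direction. Prl, fitted only without the filter on low values, is not among them. Its change in Prevention against OVX was 2.67 (SE 0.64, limma adjusted p = 0.0704). The change of Prl was 1.96 (SE 0.64, limma adjusted p = 0.670) in Treatment against OVX and -0.71 (SE 0.69) in Treatment against Prevention. In OVX against SHAM it was -0.27 (SE 0.58). Most OVX libraries had Prl at 0, and the Prevention and OVX groups lie in different library sets. With the library set as a term, the change turned to 0.57 for Prlr in Treatment against OVX, and to -0.0258 for Ghr and 0.0723 for Pomc in Prevention against OVX. With the choroid score it turned to 0.30 for Prlr in Treatment against OVX, -0.00403 for Prlr in OVX against SHAM and -0.0207 for Ghr in Treatment against Prevention. With score and set together it was 0.29 for Prlr in Treatment against OVX, -0.00454 for Prlr in OVX against SHAM and 0.19 for Pomc in Prevention against OVX. In the low set Prlr in Treatment against OVX was 0.57, and 0.30 with the score. Leaving out a library turned Prlr in Treatment against OVX (0.0641 without Treatment replicate 2, lowest -1.12), Prlr in OVX against SHAM (-0.0386 without SHAM replicate 2, highest 0.898), Pomc in Treatment against OVX (-0.0723 without Treatment replicate 5, highest 0.347), Ghr in OVX against SHAM (-0.0105, -0.0323, -0.00756 and -0.0248, highest 0.0824, without OVX replicates 3 and 4 and SHAM replicates 3 and 5) and Ghr in Treatment against Prevention (-0.0348 without Prevention replicate 4, -0.0181 without Treatment replicate 2, highest 0.0689). The cause was not tested.

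The 49 genes called in Prevention against OVX became 97 with a mean of at least 100, 253 with the choroid score, 0 with the library set and 3 with the replicate block, and ran from 1 to 481 without single libraries (lowest without Prevention replicate 3, highest without OVX replicate 7). Listed pathway genes called there were 0, and 1 with a mean of at least 100, 1 with the choroid score and up to 3 without single libraries. In Treatment against Prevention 2 genes were called with a pseudocount of 8 and 0 to 11 without single libraries (11 without Treatment replicate 2, 8 without Treatment replicate 1). Same-numbered libraries did not deviate together (8 of 30 correlations over 0.1, from -0.443 to 0.371), so they share a number only. Depth limits Prl, Gh1 and Cga, whose values in most libraries lie within 3 reads of 0.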

Other observations

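Cish, a suppressor of cytokine signalling that STAT5 induces, was looked at after its values were seen, because its SD was wide in the estradiol groups (64.3 ± 45.9 normalised counts in Treatment, 70.8 ± 35.8 in Prevention, 51.3 ± 16.1 in OVX and 55.8 ± 17.0 in SHAM). Among the 8 libraries with the highest Ttr, Cish measured 145 in Treatment replicate 6, 88.1 in Prevention replicate 1 and 115 in Prevention replicate 4. In the 5 vehicle libraries of these 8 it ran from 34.9 through a median of 52.8 to 84.6. Prlr in the same libraries lay between 405 and 467 in the 3 estradiol libraries and between 110 and 484 in the 5 vehicle libraries, with Ttr between 46280 and 71610 in the estradiol libraries and between 23190 and 136700 in the vehicle libraries. Thalamic markers (9 of 9 in the table) summed to 14670 in Treatment replicate 6 and to 15800 and 17600 in Prevention replicates 1 and 4. Among the 5 vehicle libraries of these 8 the sum was 14310 in OVX replicate 2, where Cish was 84.6. The other 4 had sums of 5200 to 8997, and Cish did not follow their order. SHAM replicate 7, at 5200, had Cish at 69.6, and OVX replicate 6, at 8997, had 51.9. Over all 24 libraries the largest thalamic sum, 19220 in SHAM replicate 5, stood beside Cish at 56.4 and a hypothalamic sum of 989.8. Hypothalamic markers summed to 5314 in Treatment replicate 6 and to 2578 and 10490 in Prevention replicates 1 and 4. This sum was 16780 in OVX replicate 2 and 956.4 to 1916 in the other 4 vehicle libraries of the 8. The part of thalamic or hypothalamic content in the Cish values was not tested. In the other 16 libraries Cish ran from 30.7 to 83.3 in 7 estradiol libraries and from 35.5 to 85.5 in 9 vehicle libraries. Cish was not called in any comparison, and the difference among libraries rich in choroid markers was not tested.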
